A study of Mus musculus with 2 samples.

Results

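On the autosomes of the mouse uterus on gestational day 4, 2010 peaks of N6-methyladenosine (m6A) had their summit where the RefSeq spans of 2 or more genes overlap. They are 7.79% (95% Wilson interval 7.47% to 8.13%) of the 25797 autosomal peaks, out of 26584 peaks in all. A peak was a member when its summit base lay between the first and last base of at least 2 genes of any kind on the build GRCm38.p6, which is the assembly of mm10. Members were classed by the kinds of gene that overlap. The rule itself does not use the fold enrichment or other peak values, but it was chosen with earlier results of these data known.

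The labels describe 2 libraries, both made from polyA RNA of wild-type female mice aged 6 to 8 weeks that were mated with fertile males, the day of the vaginal plug counting as day 1. The first library was immunoprecipitated with an antibody against m6A (IP), and the other was input without antibody. Each group has 1 sample, so there is no measure of the spread between animals and no test between samples was possible. The cell type is given as mixed, and how many animals went into a library is not given in the sources used here. Every peak name holds the text D8NegIP-Posinput. It points to another day than the label, and which is right is unsettled.

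m6A is a methyl group placed on adenosines inside mRNA by a nuclear writer complex built around METTL3 and METTL14. It is removed by the demethylases FTO and ALKBH5 and bound by reader proteins of the YTH family, which steer the decay, splicing and translation of the marked transcript. The writer prefers short sequences around GGACT, with U for T in RNA, and the mark is known to be dense around stop codons and in long internal exons. In methylated RNA immunoprecipitation sequencing, RNA is broken into fragments, those bound by the antibody are sequenced, and their excess over background marks a peak.

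Many mammalian genes share sequence with a neighbour. A small gene can lie nested inside an intron of a larger host, 2 genes can run into each other at their 3′ ends (tail-to-tail), and 2 genes can start close together and read away from each other across a shared start region (head-to-head). Long non-coding RNAs (lncRNAs) often lie antisense to coding genes in these layouts, and processed pseudogenes, copies of mRNAs put back into the genome, often lie in introns. The deposited peaks carry no strand, so a peak in such a place cannot be given to 1 gene. Which gene gave the methylated RNA is stated for no peak below.

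Start regions show the problem most directly, because the same bases belong to the start of 1 gene and the body or start of the other. RefSeq gives for each gene a window of 300 bases, the 250 before and 50 after a listed start. Such a window of a member's own gene held the summit of 50 members, in 58 windows, and 29 of these members lay in head-to-head pairs. Shown are 3 of the 5 head-to-head windows with the highest fold enrichment, namely the highest 2 and the next one with a match to the motif. Sequences are from RefSeq, build GRCm38.p6, written 5′ to 3′ on the gene's own strand. Capitals mark the letters GGACT, or AGTCC, which is GGACT on the other strand.
Uros (Bccip/Uros, chr7:133709246-133709545, minus strand): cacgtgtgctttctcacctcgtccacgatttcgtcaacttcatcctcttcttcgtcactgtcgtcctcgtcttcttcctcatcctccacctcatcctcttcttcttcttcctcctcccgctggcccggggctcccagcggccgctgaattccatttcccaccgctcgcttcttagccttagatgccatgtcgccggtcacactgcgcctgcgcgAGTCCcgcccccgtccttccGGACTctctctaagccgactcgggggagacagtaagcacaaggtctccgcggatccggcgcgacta
B230398E01Rik (B230398E01Rik/Pi4kb, chr3:94983938-94984237, minus strand): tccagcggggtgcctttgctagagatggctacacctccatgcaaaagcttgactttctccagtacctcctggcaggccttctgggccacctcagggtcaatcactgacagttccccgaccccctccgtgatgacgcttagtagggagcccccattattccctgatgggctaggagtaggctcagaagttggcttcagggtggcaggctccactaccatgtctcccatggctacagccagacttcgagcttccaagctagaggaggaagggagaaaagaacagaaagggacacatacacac
Rab11b (Gm17251/Rab11b, chr17:33760437-33760736, minus strand): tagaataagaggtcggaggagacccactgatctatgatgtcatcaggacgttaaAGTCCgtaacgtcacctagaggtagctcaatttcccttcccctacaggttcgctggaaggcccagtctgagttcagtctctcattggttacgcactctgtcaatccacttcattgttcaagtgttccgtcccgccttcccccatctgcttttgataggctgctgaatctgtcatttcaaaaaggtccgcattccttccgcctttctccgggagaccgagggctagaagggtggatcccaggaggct
The summit fell on base 135 of the Uros window, base 50 of the B230398E01Rik window and base 266 of the Rab11b window, counted from the 5′ end. GGACT or AGTCC was found in 29 of the 58 windows that held a summit (50%, 37.5% to 62.5%), against 45.4% of all 31396 autosomal windows. In the 35 windows of head-to-head pairs it was found in 20 (57.1%, 40.9% to 72.0%). A match describes these letters in this window and is not a mapped site.

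The other sequences that can be shown are those of microRNAs, small RNAs cut from a hairpin in a longer transcript, whose seed (bases 2 to 8) pairs with target mRNAs. Of 931 autosomal microRNA genes that lie inside or across another gene's span, 10 had a member summit within the hairpin. Their 17 listed mature sequences had no seed in common, and none of the 10 hairpins held GGACU. Shown are the mature sequences of the 2 hairpins with the highest fold enrichment, Mir7654 and Mir1905, and the 4 mature sequences that held the summit base itself, with the seed in capitals (RefSeq, GRCm38.p6).
mmu-miR-7654-3p (in Arglu1, chr8:8690093-8690114, minus strand): cGAGCGGGagcgcgccucgucc
mmu-miR-1905 (in Mex3a, chr3:88536311-88536332, minus strand): cACCAGUCccaccacgcgguag
mmu-miR-3077-5p (in Sap18, chr14:57798424-57798448, plus strand): cUGCGGACgggugggcgggcaggcc
mmu-miR-6899-3p (in Klf7, chr1:64042438-64042460, minus strand): uUGUCCUUcugugucuucugcag
mmu-miR-6902-3p (in Ppp1r7, chr1:93346135-93346155, plus strand): cCAUGUGAuguguggguucag
mmu-miR-7051-3p (in Etfb, chr7:43457546-43457567, plus strand): uGAGCCACugauuccugugugc

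The members rested on somewhat shallower data than other peaks. The IP pileup at the summit, the number of IP fragments that cover it, had a median of 17 in members, against 20 in peaks whose summit lay in exactly 1 coding gene. The background expected there had a median of 1.35 fragments in members, against 1.69 in peaks of 1 coding gene. Fewer than 10 IP fragments lay under 433 members (21.5%), against 15.7% of the peaks of 1 coding gene. Marker genes of the tissue carried peaks in the same list, in which 46.2% of all autosomal coding genes had one. All 9 markers of uterine stroma and all 6 of smooth muscle had a peak, as did 6 of 8 of epithelium and gland and 4 of 5 of endothelium. Of 4 leukocyte markers 2 had a peak, and Cd68 and Ptprc had none. None of 3 red blood cell markers and none of 3 markers of the preimplantation embryo had one.

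Fold enrichment, the authors' value, is the pileup plus 1 over the background plus 1. It had a median of 6.98 (95% interval of the median 6.81 to 7.22) in members, against 7.32 (7.25 to 7.36) in peaks of exactly 1 coding gene and 6.32 (6.12 to 6.44) in peaks outside all genes. A fold enrichment of at least 10 was reached by 468 members (23.3%, 21.5% to 25.2%), against 27.3% of peaks of 1 coding gene. Over all autosomal peaks the share was 25.8%. This difference was not tested. Among peaks of at least 10 IP fragments the medians were 7.91 in members and 8.00 in peaks of 1 coding gene. At the threshold of 10, the nearest member above it was a peak of the Pcdhb12 set at 10.001, and the nearest below it were the pairs E230016M11Rik/Gadd45a and Gm51644/Srgap2 at 9.97.

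**Figure D1:**
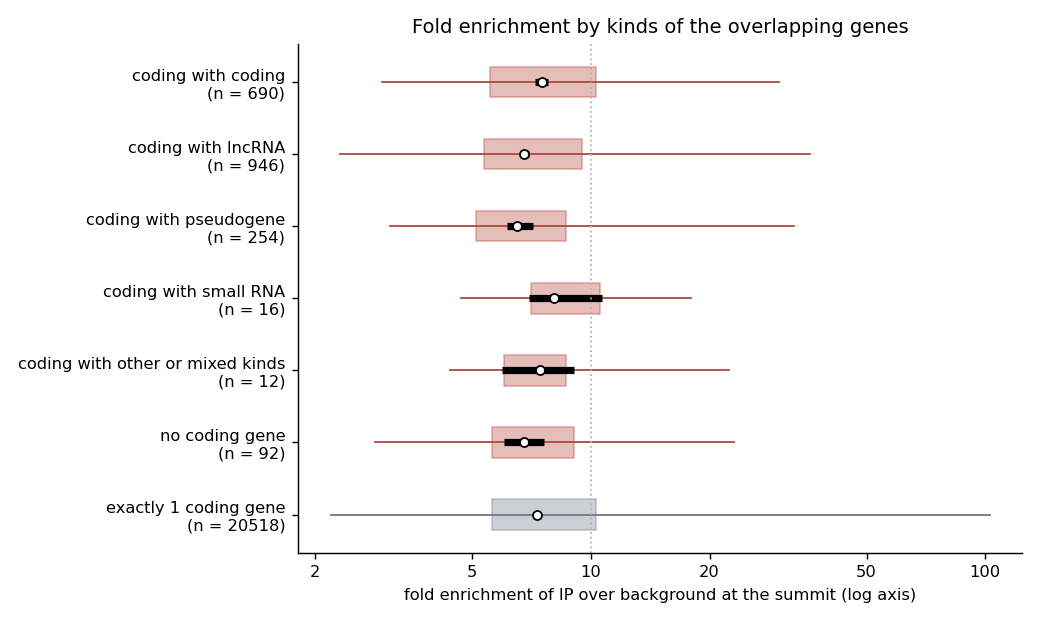
Fold enrichment (log axis) of member peaks by the kinds of their overlapping genes, with peaks in exactly 1 coding gene at the bottom. Boxes span the quartiles, lines the whole range, circles the medians and black bars the 95% interval of the median; coding with coding members had a median of 7.52 and peaks of 1 coding gene 7.32.

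Peaks shared by coding genes had a median fold enrichment near that of single coding genes, and peaks shared with a lncRNA or a pseudogene had a lower one. The 690 members in which coding genes overlapped only coding genes had a median of 7.52 (7.21 to 7.80), and 27.7% of them reached 10. The 946 members in which a coding gene met a lncRNA, 47.1% of all members, had a median of 6.78 (6.61 to 6.98), and 21.9% reached 10. For the 254 in which a coding gene met a pseudogene the median was 6.50 (6.12 to 7.12) and the share 17.3%. The smaller classes were coding genes with small RNA genes (16 members), coding genes with other or mixed kinds (12) and sets with no coding gene (92). None of these differences between classes was tested.

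Most members involved exactly 2 genes: 1836 did, and 174 lay in 3 or more. The members fell in 1367 different sets of genes, and 963 of these sets held a single peak. In all they touched 2571 genes, 1617 of them coding. Strand is known here only for genes with a RefSeq promoter or microRNA entry. In 1042 members of 2 genes both strands were known, and in 892 of them (85.6%, 83.3% to 87.6%) the genes lay on opposite strands. This was near the annotation itself: where both genes are coding, 76.7% of members of known strand had opposite strands, against 83.0% of all such overlapping pairs. With a lncRNA it was 91.9% of members, against 90.9% of all pairs. Of these 892, 362 were nested, 341 tail-to-tail and 189 head-to-head. The whole peak, not only its summit, lay inside the shared segment in 1567 of the 1836 members of 2 genes (85.3%).

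Pooled over all layouts, shared sequence was denser in peaks than sequence under 1 gene, but the layouts differed widely. Summits numbered 30.2 per Mb (28.9 to 31.5, Poisson interval) over the 66.6 Mb under 2 or more spans, against 19.4 per Mb (19.1 to 19.7) over the 1122 Mb under exactly 1. The overlaps thus held 8.46% of genic summits on 5.61% of the genic length. The longest part of the shared sequence, 33.2 Mb where a coding gene and a lncRNA are nested, held 13.3 per Mb (12.1 to 14.6), and the 9.16 Mb with no coding gene held 11.6 (9.48 to 13.999), both below the value under 1 gene. Overlaps between coding genes held 62.98 per Mb (58.5 to 67.8). Spans include introns, and the share of exons in each kind of sequence was not tested. Of the 14773 pairs of autosomal genes whose spans overlap, 1889 (12.8%) had a peak in the shared segment.

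**Figure D2:**
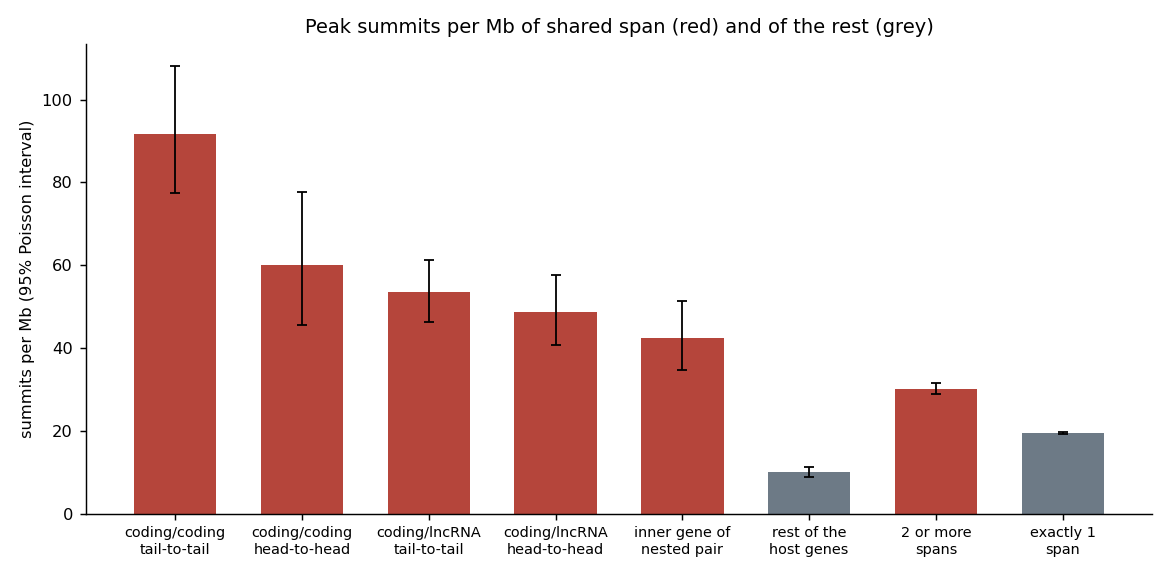
Summits per Mb of sequence, with 95% Poisson intervals. Red bars are sequence shared by 2 or more genes, by layout, and grey bars the rest, not matched for gene size. Tail-to-tail coding pairs had 91.8 per Mb. Inner genes of nested pairs had 42.5 per Mb, against 10.002 per Mb in the rest of their hosts.

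Some of the strongest member peaks lay where a coding gene is nested in another. In 104 members a coding gene lay inside a coding host on the other strand, with a median fold enrichment of 8.03 (7.56 to 9.10), and 33.7% (25.3% to 43.2%) of them reached 10. The inner genes of such pairs held 42.5 summits per Mb (34.8 to 51.4), against 10.002 per Mb (8.89 to 11.2) in the rest of the host spans. This contrast is not matched for gene size. Beside coding genes of like size that overlap no other gene, the share of inner genes with a peak went both ways. It was 30.2% against 18.7% under 5 kb, 29.9% against 41.3% from 5 to 20 kb and 53.8% against 52.0% from 20 to 100 kb. A peak lay in the inner gene in 70 of 217 such pairs (32.3%). In 27 of these 70 pairs (38.6%) the host had no peak outside the inner gene. Within inner genes spanning under 20 kb, 53.2% (42.3% to 63.8%) of 79 summits lay in the last of 3 equal parts of the inner span, the one at its 3′ end, against 51.1% (49.5% to 52.8%) of 3525 summits in coding genes of that size that overlap no other gene. The interval of the inner genes takes in the share of genes that stand alone.

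Cmss1/Filip1l held the highest of these peaks. Filip1l, a filamin-interacting protein, lies on chromosome 16 inside the span of Cmss1 on the opposite strand. The peak at chr16:57391129-57391810 had a fold enrichment of 29.96 (25.9 to 34.4) from 196 IP fragments, the second highest pileup of all members. A second shared peak at chr16:57569500-57572579 reached 18.7 (15.4 to 22.5). The 3 peaks in Cmss1 alone reached no more than 5.43. The pair was named for its high shared peak, so its height over the host's peaks follows in part from the choice.

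Fahd1, an enzyme of mitochondria that cleaves acylpyruvates, sits inside Hagh, the glyoxalase that clears lactoylglutathione. Their shared peak at chr17:24849118-24850220 had a fold enrichment of 28.8 (21.5 to 37.8) from 50 fragments. Hagh had no peak of its own elsewhere in its span.

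Fbxl14, a substrate-binding subunit of a ubiquitin ligase, lies inside Wnt5b, a ligand of non-canonical Wnt signalling. The shared peak reached 27.4 (20.9 to 35.3) from 58 fragments, and the 3 peaks in Wnt5b alone reached 11.4 at most. Cstf2t, a cleavage and polyadenylation factor without introns, lies inside Prkg1, the cGMP-dependent kinase of smooth muscle, whose span measures 1201 kb. The shared peak reached 26.3 (21.3 to 32.1) from 94 fragments, against at most 12.3 in the 8 peaks of Prkg1 alone. In both pairs the shared peak was more than 2 times as enriched as any peak elsewhere in the host. Both were named for a high shared peak, so this does not describe nested pairs at large.

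Angptl2 and Ralgps1 shared 5 peaks, and among nested coding pairs on opposite strands only Gm40814/Pkd1l1 shared more, with 6. Angptl2 encodes a secreted angiopoietin-like protein, and Ralgps1 an exchange factor for Ral GTPases. The shared peaks had fold enrichments of 22.6, 24.3, 6.00, 8.00 and 6.95 in order along the chromosome. The highest was at chr2:33227995-33228951 with 84 fragments (24.3, 19.4 to 30.01). The 2 peaks in Ralgps1 alone reached 5.85, and a peak shared with Gm13528 reached 6.34. The 2 strong peaks lay towards the start of Angptl2, and the 3 weaker ones lay nearer its 3′ end.

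Further nested pairs were picked for secreted and cell-surface proteins, with their values known. Nested pairs of other kinds reached as high, such as Gm16286/Txnl4a at 23.9 and Mrm2/Nudt1 at 23.6. Timp3, an inhibitor of matrix metalloproteinases, lies inside the synapsin gene Syn3 and shared 1 peak of 23.3 (17.5 to 30.5). Fgl2, a fibrinogen-like protein, lies inside Ccdc146 and shared 2 peaks, the higher at 21.5 (17.6 to 26.0) from 103 fragments. Angpt2, a ligand of the endothelial receptor TEK, lies inside Mcph1 and shared 4 peaks of up to 20.5 (15.4 to 26.8). Vsir, an immune checkpoint protein, lies inside Cdh23, a cadherin known from the inner ear, and shared 2 peaks of up to 17.3 (12.7 to 23.2). Ecm2, a matrix protein, lies inside Cenpp, a centromere protein, and shared 1 peak of 15.9 (12.4 to 20.2). The hosts Ccdc146 and Cdh23 had no peak of their own, and those of Syn3, Mcph1 and Cenpp reached 5.11, 9.46 and 4.59.

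Where both strands were known, same-strand nesting of coding genes was less common than opposite-strand nesting, among members and in the annotation alike. The annotation holds 142 and 217 such pairs. It holds 938 nested coding pairs in all, and 249 members lay in nested coding pairs. For the rest of these the strands were not both known, so the order over all nested pairs is not settled. A peak lay in the overlap in 36.6% of the same-strand pairs, against 32.3% of the opposite-strand ones. In 65 members a coding gene lay inside another on the same strand (median 8.35, 6.29 to 9.69), where the label of 1 gene can also be a variant of the other. Pelo, a factor that rescues stalled ribosomes, lies inside Itga1, an integrin subunit that binds collagen. Their 2 shared peaks reached 14.8 (10.5 to 20.5), against 12.5 for the 3 peaks of Itga1 alone. Utp14b, a retrogene copy of a ribosome assembly factor, lies inside Acsl3, an acyl-CoA synthetase, and shared 1 peak of 18.003 (12.7 to 24.8) at chr1:78664792-78667192. Cox16 with the predicted gene Gm20498 held 12 shared peaks, of 3.86 to 6.81, so this large set was made of weak peaks.

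Tail-to-tail coding pairs were dense in peaks over short shared segments. They held 144 summits on 1.57 Mb, or 91.8 per Mb (77.4 to 108), and 20.1% of 507 pairs had one, and coding genes that overlap in part on the same strand were level with them (91.6 per Mb, 63.0 to 129). The median shared segment of tail-to-tail pairs measured 734 bp. Of 139 members with just these 2 genes, 77 (55.4%, 47.1% to 63.4%) lay within 1 kb of the nearer 3′ end, against 12.3% of peaks in exactly 1 coding gene of known strand. Members had the 3′ ends of 2 genes to be near, and the layout itself puts the shared segment between them. Their median fold enrichment of 7.36 (6.86 to 7.92) was close to that of peaks in 1 coding gene, and their median pileup was 26.

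Gdf7, a ligand of the bone morphogenetic protein family, meets Ldah, a hydrolase of lipid droplets, tail-to-tail on chromosome 12. The shared peak at chr12:8297315-8299101 had a fold enrichment of 28.3 (23.3 to 34.1) from 109 fragments, and its summit lay 67 bp from a 3′ end. Gdf7 alone had 1 peak of 12.0 and Ldah alone 3 of up to 8.38. This pair, too, was named for its high shared peak. Hspa5, the endoplasmic reticulum chaperone BiP, meets Rabepk tail-to-tail. Their peak had 153 fragments over a high background of 11.9 and thus a moderate fold enrichment of 11.9 (10.1 to 13.95).

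Others in this layout, picked with their values known, were Dcun1d3/Rexo5 with 2 peaks of up to 19.3, Bmp2k/Paqr3 at 17.0 (13.7 to 20.8), Aopep/Fancc at 16.4 (12.8 to 20.7) and Ppm1e/Trim37 at 15.1 (11.1 to 20.02). Bmp2k and Paqr3 had no peak outside their overlap, nor did Dcun1d3 and Rexo5. For these 2 pairs every peak that either gene carries is shared.

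**Figure D3:**
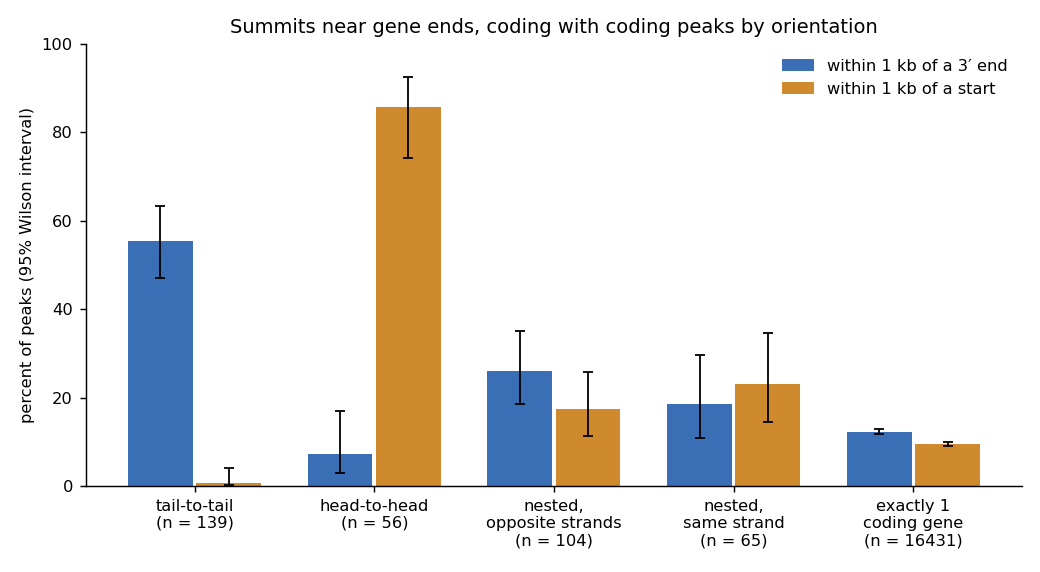
Percent of coding with coding members within 1 kb of the nearer 3′ end (blue) or start (orange) of their 2 genes, by layout, with peaks of exactly 1 coding gene at the right and 95% Wilson intervals. Tail-to-tail members lay near 3′ ends in 55.4% and head-to-head members near starts in 85.7%, against 12.3% and 9.38% of peaks in 1 coding gene.

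Head-to-head coding pairs had peaks at their starts. Of 56 members in this layout, 48 (85.7%, 74.3% to 92.6%) lay within 1 kb of the nearer start, against 9.38% of peaks in 1 coding gene. Here too the layout puts the shared segment at the starts. These were shallow peaks: their median pileup was 9.5 fragments, and 28 of the 56 rested on fewer than 10. In 18 of the 56 the peak reached past 1 edge of the shared segment, and in 4 past both. A peak lay in 53 of 446 such pairs (11.9%).

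Bccip, a partner of BRCA2, and Uros, an enzyme of haem synthesis, held the strongest head-to-head coding peak, in the Uros window printed above. It had a fold enrichment of 23.6 (16.4 to 33.1) from 32 fragments over a background of 0.396. Bccip had no other peak, and Uros had 1 of 5.49. Pfn1, the actin-binding protein profilin, and Eno3, an enolase of muscle, shared 3 peaks of up to 23.3 (18.2 to 29.3), and Pfn1 alone had 1 of 10.4. Tor1aip1 and Tor1aip2, membrane proteins that activate torsin, shared 1 peak of 13.9 (9.91 to 19.05), and each had 4 peaks of its own, of up to 13.5 and 16.2.

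**Figure D4:**
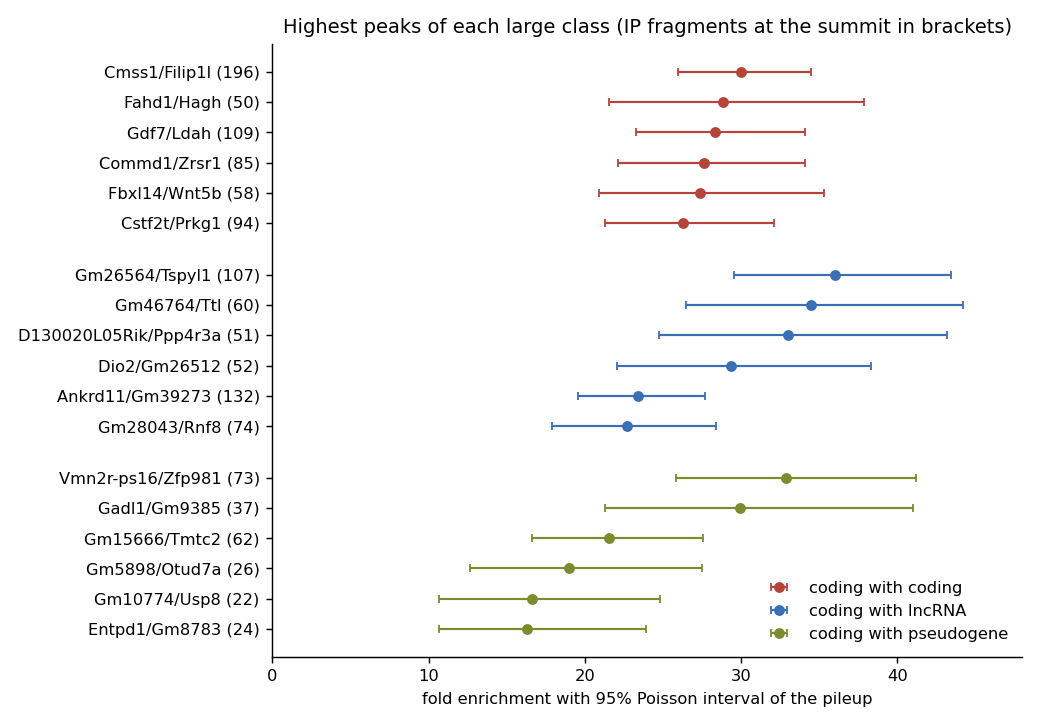
Fold enrichment of the 6 highest members in each of the 3 large classes, with 95% Poisson intervals of the pileup and the number of IP fragments in brackets. The highest of all was Gm26564/Tspyl1 at 36.0, and most neighbours within a class have intervals that overlap.

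With all annotated genes counted, overlaps of a coding gene with a lncRNA made up the largest class of members. Such pairs are also 4928 of the 14773 overlapping pairs and cover 43.2 of the 66.6 Mb of shared sequence. They held 22.0 summits per Mb (20.6 to 23.5), against 30.2 over all shared sequence. Without genes of predicted names the order of the classes turned, to 14.99% with a lncRNA and 73.9% coding with coding. In 488 of 928 members with 1 of each (52.6%, 49.4% to 55.8%) the coding gene, but not the lncRNA, had peaks of its own elsewhere in its span. The reverse held in 51 (5.50%). In 345 (37.2%) neither had a peak of its own. In 421 of the 928 members 1 gene lay inside the other, and an inner gene has no sequence outside its host for a peak of its own. The split thus follows in part from the layout. Coding spans are also usually longer and their transcripts better known, so these counts do not assign a peak to a strand. Tail-to-tail overlaps held 53.4 summits per Mb (46.3 to 61.3), head-to-head 48.6 (40.8 to 57.5), and antisense nesting 15.2 (13.4 to 17.2).

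The highest member of all was Gm26564/Tspyl1 at chr10:34282190-34283731, with a fold enrichment of 36.0 (29.6 to 43.4) from 107 fragments. Tspyl1, a nucleosome assembly-like protein, lies inside the lncRNA Gm26564 on the opposite strand, and neither gene had a peak outside the overlap. Ttl, which adds tyrosine to tubulin, meets Gm46764 tail-to-tail. Its only peak, at chr2:129092862-129093725, reached 34.5 (26.4 to 44.2), with the summit 288 bp from a 3′ end. Ppp4r3a, a regulatory subunit of protein phosphatase 4, and D130020L05Rik start head-to-head. Their shared peak reached 33.0 (24.7 to 43.2), against at most 9.71 in the 3 peaks of Ppp4r3a alone.

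Dio2, the deiodinase that activates thyroid hormone, and Gm26512 start head-to-head at a peak of 29.3 (22.0 to 38.3), and the 2 peaks of Dio2 alone reached 12.8. Ankrd11, a chromatin regulator, meets Gm39273 tail-to-tail and held 7 shared peaks, the highest at 23.4 (19.6 to 27.7) from 132 fragments and 6535 bp wide. Neither had a peak elsewhere, although Ankrd11 spans 159 kb. Papolg, a poly(A) polymerase, shared with Gm12061 a head-to-head peak of 22.6 (15.1 to 32.8) that was the only peak of either gene. Pi4kb, a lipid kinase of the Golgi, shared the peak in the B230398E01Rik window printed above, which reached 21.3 (17.2 to 26.2) from 90 fragments. Rab11b, a GTPase of recycling endosomes, shared with Gm17251 the peak in the window printed above, which had a fold enrichment of 9.69 (5.95 to 15.0) from 18 fragments.

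Genes of growth factor and hormone signalling and of the matrix were among those with a lncRNA partner. Csf1, the growth factor of macrophages, lies wholly inside Gm40121, so all of its 3 peaks were shared. They reached up to 18.98 (15.1 to 23.6). The growth hormone receptor gene Ghr meets Gm41254 tail-to-tail at a peak of 19.1 (14.9 to 24.3), and its 4 own peaks reached 8.00. Irs2, an adaptor of insulin signalling, shared 1 head-to-head peak of 19.96 (13.8 to 27.9) with 9530052E02Rik and had 4 of its own, of up to 18.5. Tnc, the matrix protein tenascin C, held 6 of its 7 peaks in its head-to-head overlap with 8030451A03Rik, and these ranged from 3.79 to 15.8. Csf1, Ghr and Irs2 were picked with their values known.

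Genes that pattern the uterus and prepare it for implantation carried several members. Of a list of 43 uterine regulators, 8 had a member peak (18.6%), against 1617 of 20661 autosomal coding genes (7.83%). In the list 17 overlap another gene (39.5%), against 41.1% of all coding genes, and 37 had some peak (86.05%), against 46.2%. The list was chosen with earlier results of these data known. All 8 met a lncRNA in the member peak, and several partners are named as the opposite-strand transcript of the gene.

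Hoxa11, a homeobox gene needed for uterine fertility, had 2 peaks, and both were shared. The stronger, at chr6:52242324-52243752, lay where LOC115490410 is nested in it on the other strand and reached 17.9 (14.7 to 21.6) from 108 fragments. The second, at chr6:52245066-52245842, lay in the head-to-head overlap with Hoxa11os and reached 6.94 (5.39 to 8.80) from 66 fragments. Hoxa11os alone had 3 more peaks of up to 5.96, so peaks lay on both sides of the Hoxa11 start. Hoxa10, a target of progesterone needed for stromal decidualization, shared a weak peak of 3.58 (2.56 to 4.89) with Gm52902, and its 3 own peaks reached 9.38.

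Dlx6, a homeobox gene of uterine glands, lies wholly inside the antisense gene Dlx6os1, so all of its 3 peaks were shared. They reached 19.4 (13.8 to 26.5), 12.6 (7.62 to 19.7) and, where Dlx6os2 also overlaps, 5.97 (3.38 to 9.90). Msx1, which acts in the uterine epithelium before implantation, shared 2 of its 3 peaks with Msx1os. These reached 9.78 (6.97 to 13.4) and 7.69 (4.84 to 11.7), and its own peak 8.36. Msx2 had its only peak, of 7.55 (3.74 to 14.1) from 8 fragments, inside Gm33763.

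Gata2, a partner of the progesterone receptor, started head-to-head with Gm38708 at a peak of 8.81 (5.54 to 13.4), and its own peak reached 17.6. Tbx3 shared 1 peak of 8.11 (4.84 to 12.9) with Tbx3os1 beside 5 of its own of up to 12.3. Zeb2, a repressor of epithelial genes, shared with Zeb2os a weak peak of 3.14 (1.78 to 5.21) with a −log10 q of only 2.44, while its 5 own peaks reached 32.4. For Hoxa11, Dlx6 and Msx2 every peak fell in the overlap. Dlx6 lies wholly inside Dlx6os1, so its peaks could fall nowhere else, and Msx2 and Gm33763 are nested too. For Gata2, Tbx3 and Zeb2 the strongest peak did not, a contrast that follows in part from the layouts.

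The Hox clusters, where coding genes and antisense RNAs interleave, held further members. Among 43 listed autosomal genes of known antisense or divergent pairs, 11 had a member peak (25.6%), against 7.83% of all autosomal coding genes. The list was chosen for genes in such pairs, and 29 of the 43 overlap another gene, so the groups are unlike. Hoxb6 lies inside Hoxb5os and shared 4 peaks, of 6.10, 6.50, 3.87 and 19.9 in order along the chromosome. The highest, at chr11:96300556-96301402, rested on 97 fragments (16.2 to 24.2). Hoxa6 lies under both Hoxa3 and Hoxaas3, and the 3 peaks under these genes reached 11.0 (6.84 to 16.9). Adamts9, a matrix protease, shared 2 head-to-head peaks of 5.91 and 2.31 with 9530026P05Rik, and 2.31 was the lowest fold enrichment of any member.

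Imprinted loci, where only the maternal or the paternal copy is transcribed, can hold a small gene nested in a larger one. Of 37 listed autosomal genes of such loci, 31 overlap another gene and 18 had a member peak (48.6%), against 7.83% of all autosomal coding genes. The list too was chosen with earlier results known, and nested loci were among the reasons for naming its genes. It also holds non-coding genes and both partners of some pairs, so that 1 peak can count for 2 listed genes, and the groups are unlike.

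Several of the pairs with a member have the imprinted gene nested inside a host, with the summit in the nested span. Such a summit lies in the host span too, so a peak that a nested gene is said to hold is not assigned to it. Zrsr1, a splicing factor copy expressed from the paternal allele in mice, lies inside Commd1 and held a peak 2687 bp wide at chr11:22971975-22974661 with a fold enrichment of 27.6 (22.1 to 34.1), while the 3 peaks of Commd1 alone reached 8.08. Nap1l5, a nucleosome assembly-like gene, lies inside Herc3 and held 2 peaks of 19.5 (12.99 to 28.2) and 10.05 (6.00 to 15.9), and Herc3 had no other peak. Mcts2, a copy of a translation factor gene, lies inside H13 on the same strand and held 1 of 9.74 (6.63 to 13.8), while those of H13 alone reached 7.31. Peg13, a lncRNA inside Trappc9, held 1 of 10.6 (7.49 to 14.5), the only peak in the 472 kb of Trappc9. Nnat, a small membrane protein, lies inside Blcap and held 1 of 7.19 (4.52 to 10.9), close to the 6.25 of Blcap alone.

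The long antisense RNAs of imprinted clusters carried peaks as well. Kcnq1ot1, which silences its neighbours on the paternal allele, lies inside Kcnq1 and held all 6 peaks of that gene, of 3.28 to 10.7. Airn starts inside Igf2r and runs against it. The 3 peaks they share reached only 5.94 (4.05 to 8.45), while Airn alone held 20 peaks of up to 11.5 and Igf2r alone 2 of up to 8.62. Snhg14 runs into Ube3a, a ubiquitin ligase gene, from the other end. The 3 shared peaks reached 11.1 (8.05 to 14.9), 11.1 (8.01 to 15.0) and 3.97 (2.47 to 6.09). Ube3a alone held 3 of up to 7.43 and Snhg14 alone 1 of 12.4, above the shared peaks. Peg3os lies inside Peg3, a zinc finger gene, at a peak of 13.3 (9.54 to 18.2), beside 4 peaks of Peg3 alone of up to 14.3. Of 22 genes of the m6A machinery, 9 overlap another gene (40.9%, against 41.1% of all coding genes), 15 had some peak and 0 had a member peak. With 7.83% of all coding genes holding a member, a list this short is too small to show a difference.

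Coding genes and pseudogenes were nested either way round. Zfp981, a zinc finger gene, lies inside the span of the vomeronasal receptor pseudogene Vmn2r-ps16 and held 6 shared peaks, of 5.19 to 32.8, the highest from 73 fragments (25.8 to 41.2). It belongs to a family of near-identical zinc finger genes, so where these fragments came from is uncertain. Gm9385, a pseudogene of 591 bp, lies inside Gadl1, and their shared peak of 29.9 (21.3 to 41.0) was the only peak in 192 kb. Gm15666 lies inside Tmtc2 and shared with it a peak of 21.6 (16.6 to 27.5), beside 4 of Tmtc2 alone of up to 16.1. Gm5898 lies inside Otud7a, where all 3 peaks were shared and reached 18.98 (12.6 to 27.5). Fragments from a parent gene's mRNA can align to its processed copy. Whether they did so here was not tested.

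Small RNA genes are short, and few of them held a summit. Among 1640 overlaps of a coding gene with a small RNA gene, 16 (0.976%) had a summit in the shared segment, whose median length was 98 bp. Per length this came to 100.5 summits per Mb (57.4 to 163), over only 0.159 Mb. Mir7654 lies inside Arglu1, a splicing factor gene, at a peak of 17.9 (12.97 to 24.1) that spans 628 bp, and the 3 peaks of Arglu1 alone reached 20.1. Mir1905 lies on the other strand of Mex3a, an RNA-binding protein gene, and their shared 1371 bp peak of 13.003 (9.26 to 17.8) was the only one in Mex3a. Mir3077 lies inside Sap18, and their shared 443 bp peak of 12.1 (7.70 to 18.2) was the only one there. In 4 of the 10 hairpins the summit base fell in a printed mature sequence, those of Mir3077, Mir6899, Mir6902 and Mir7051, with fold enrichments of 12.1, 10.2, 8.88 and 5.39. Each peak was wider than its hairpin, so the summit in a hairpin of 63 to 111 bp gives the position of a broader signal.

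The sets with the most genes lay in 1 place. Of the 185 members on chromosome 18, 135 lay in the protocadherin clusters, arrays of cell adhesion genes, together with predicted genes that span them. A single summit there lay in up to 25 spans. The 135 peaks had a median fold enrichment of 7.04 (6.52 to 7.55) and reached 19.3 at most. Members made up 22.3% of the peaks of chromosome 18 and 7.25% without these clusters, near the 5.71% to 11.3% of the other autosomes. The clusters also raised the share of overlapping coding pairs with a shared peak, which was 34.8% with them and 20.2% (18.6% to 22.0%) without them. In the Ugt1a cluster, where glucuronosyltransferase genes share their 3′ exons, 4 peaks lay in 4 to 7 spans and had fold enrichments of 4.00, 8.83, 8.24 and 7.14.

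The remaining 92 members held no coding gene and had a median fold enrichment of 6.75 (6.04 to 7.61). Norad, an abundant cytoplasmic lncRNA that binds Pumilio proteins, overlaps Gm14170, and the higher of their 2 peaks had 154 fragments and a fold enrichment of 15.7 (13.4 to 18.4). The pseudogene and lncRNA 5830417I10Rik and 1500004A13Rik shared 4 peaks of up to 23.1 (17.1 to 30.6), and 5830417I10Rik alone had 2 of up to 18.7. The intervals cover counting error only, and PCR reads are not independent molecules. Fewer cells of a type and less RNA per cell cannot be told apart in such a whole-tissue sample, and a single library pair says nothing of how these peaks vary between animals.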

How the data were processed

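The deposited peak list holds 1 line per peak for the IP library. The input library has no peak list of its own here, and how it entered peak calling is not given in the sources used here. Reads were aligned with HISAT2 2.2.1 to mm10 and peaks called with MACS3 3.0.0a7, per the submitters' processing notes, while their options were not stated. The deposited score, the fold enrichment at the summit and the −log10 p and −log10 q values are the authors' peak caller's own output, per the submitters' processing notes that name it. There is 1 peak list, so peaks could not be compared between samples.

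A solver took each peak's pileup and background from these values, with fold enrichment as pileup plus 1 over background plus 1 and −log10 p as a Poisson tail. The solver recovered 100% of 2000 simulated peaks. The 95% intervals of fold enrichment are exact Poisson ones, from the pileup with the background held fixed, those of shares are Wilson intervals, and all treat peaks or fragments as independent. Each summit, the start plus the offset in column 10, was placed in RefSeq gene spans (GRCm38.p6), which carry no strand and no exons. Strand came from RefSeq promoter and microRNA tables, for 26727 of 47038 autosomal genes. Genes were named by a rule: with a −log10 q of at least 5, the 6 members highest by fold enrichment in each class of 20 or more and the 3 highest in smaller classes, and further the sets with most peaks or fragments and the members of the gene lists, some of which have a lower q. Those named by layout were picked with their values known. The members and lists were chosen with earlier results of these data known. The work used scipy 1.17.1, pandas 2.3.3, numpy 2.4.6 and, for figures, matplotlib 3.10.9, under Python 3.11.15. Stricter peaks, other gene sets, other overlap rules and other added constants were tried, and the protocadherin clusters were left out as an alternative added after seeing the data.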

Additional observations from a re-analysis of the deposited data

How the results depend on the processing

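Of 52 alternative values, 24 counted as the same and 28 as moved. For all results but the number of members, the limit was the 95% interval of the value reported. For the number of members it was a wider fixed ratio. Under it 1688 (−log10 q of at least 5) and 2311 (any overlap) still counted as the same as 2010. Counting coding genes alone left 722 peaks in 2 or more spans (median fold enrichment 7.43, 26.9% at 10 or more, median background 1.54, 62.98 peaks per Mb of overlap, 76% of the peaks of 2 genes on opposite strands). Leaving out genes with predicted names left 727 (7.36, 26.3%, background 1.73), of which 73.9% were coding with coding, 14.99% coding with lncRNA and 8.53% coding with pseudogene. With a −log10 q of at least 5 the median was 7.65, against 7.88 in peaks of 1 coding gene. The share at 10 or more was then 27.7%, the background 1.47, the density 25.3 per Mb and the share of pairs with a peak 11.2%. With at least 10 IP fragments the median was 7.91 and the share 29.7%, against 8.00 and 32.3% in peaks of 1 coding gene. Adding 0.5 or nothing in place of 1 to pileup and background gave medians of 9.08 and 13.9. The share of pairs with a peak was 14.6% for any overlap of peak and segment and 18.3% for pairs that share at least 500 bp. Without the protocadherin clusters it was 9.70%, the density 28.5 per Mb, and the class shares 30.5% (coding with coding) and 50.5% (coding with lncRNA). The cause was not tested, beyond what each filter removes. No paired analysis was possible because each group has 1 sample and no test was run. Depth limits most the members in coding head-to-head pairs, with a median pileup of 9.5, and those in the protocadherin clusters, with 12.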

Other observations

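The same rule on the sex chromosomes found 47 peaks on X and none on Y, and these were not analysed further. Among the autosomes, chromosome 19 had the largest share of members outside the protocadherin clusters, 95 of 838 peaks (11.3%), and chromosome 15 the smallest, 57 of 999 (5.71%). Coding genes nested in a host on the opposite strand and spanning under 5 kb had a peak in 26 of 86 cases (30.2%), against 18.7% of coding genes of that size that overlap no other gene. From 5 to 20 kb the share was 29.9%, against 41.3%, and from 20 to 100 kb it was 53.8% of 26, against 52.0%. Over 100 kb there were only 2 nested genes, 1 of them with a peak, against 62.0%. The share rose with size in genes that overlap no other. Which group had the higher share followed no trend with size.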
